A study of Homo sapiens with 9 samples.

Results

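The genes that copy DNA in S phase were measured in THP-1, an established human acute monocytic leukaemia line, after treatment with the plant triterpene lupeol. They are 34 genes of 67927 with values in the deposited count table, taken by their symbols on the main chromosomes: 10 of origin licensing, 6 of helicase activation, 5 of the sliding clamp and its loader, 5 of polymerases and primase, 4 of nucleotide supply, 2 of Okazaki fragment processing and 2 regulators. RNA-seq was done on 9 libraries, 3 from cells given the solvent of lupeol (control), 3 from cells given lupeol at 50 µmol/L (lupeol 50) and 3 at 80 µmol/L (lupeol 80). The labels put RNA extraction after 48 h and name neither the solvent nor separate cultures within a group, so the p-values given here speak only of library-to-library spread, part of which may be technical. The controls are called 1, A and B, because 2 of their columns shared 1 heading. One lupeol 50 library has a treatment label without the micro prefix of its unit and was placed by its sample description. All 34 genes passed the filter on low counts, with at least 427 counts in every library, and levels are given as CPM scaled by TMM, which adjusts for library depth and composition.

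Replication starts from origins that are licensed in G1. The origin recognition complex with CDC6 and CDT1 loads the MCM2-7 ring, which becomes an active helicase in S phase once CDC45 and the GINS complex join it. Primase and DNA polymerase alpha start each strand, polymerases delta and epsilon extend it on the clamp PCNA, and ribonucleotide reductase, thymidylate synthase and thymidine kinase supply the nucleotides. Many of these genes are transcribed by E2F factors at the passage into S phase, so in a cycling leukaemia line their transcripts follow both how many cells are in cycle and how much each cell makes. In bulk RNA, fewer cells in S phase and less RNA per cell cannot be told apart.

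Promoter letters that E2F factors are known to prefer were counted as a description. Many of the genes are known to be transcribed by E2F factors, so a high share could be foreseen from the choice of genes. The letters searched were TTTCGCGC, TTTGGCGC, TTTCCCGC and TTTGCCGC on both strands, in the RefSeq window of GRCh38.p14 that runs from 250 bases before to 50 bases after the RefSeq gene start. That start can differ from the start of the gene as counted. The UHRF1 stretch printed below begins at 4909447, inside the counted gene, which begins at 4903080. The LIG1 stretch also lies inside its counted gene, which on the minus strand starts at 48170603. The RFC3 stretch runs across the start of its counted gene at 33818069. The table held 31 of the 34 genes (not MCM4, MCM5 and GINS4), and 18 of these 31 windows (58.1%) held at least 1 match. Of all 27305 windows in the table, 3.33% did, and of those of tested genes 5.22%. The share was 24.2% of 33 windows in the list of further replication genes given below. It was 33.3% of 15 for regulators of S phase entry and 13.3% of 15 for genes of mitosis. At least 2 matches were held by 5 windows, those of E2F1, MCM2, MCM3, MCM6 and MCM7, against 0.154% of all windows. In MCM6 the 4 matches form 2 pairs that overlap on opposite strands, and the 2 matches of MCM2 overlap in the same way. A match is a description of the letters and not of binding. Stretches around the matches are printed 5′ to 3′ on the gene's strand, with the matches in capitals. They show the E2F gene itself, the gene with the most matches (MCM6), the clamp (PCNA), and 3 genes given full statistics in a comparison: LIG1, RFC3 and UHRF1, of which RFC3 stood above and UHRF1 below control at lupeol 80. Sequences are from RefSeq.
E2F1 (GRCh38.p14, chr20:33686386-33686458, minus strand): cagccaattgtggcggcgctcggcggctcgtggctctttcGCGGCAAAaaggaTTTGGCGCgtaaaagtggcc
MCM6 (GRCh38.p14, chr2:135876482-135876635, minus strand): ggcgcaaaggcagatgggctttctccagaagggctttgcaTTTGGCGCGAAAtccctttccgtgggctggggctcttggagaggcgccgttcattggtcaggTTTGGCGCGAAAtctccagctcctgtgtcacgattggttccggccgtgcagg
PCNA (GRCh38.p14, chr20:5126634-5126721, minus strand): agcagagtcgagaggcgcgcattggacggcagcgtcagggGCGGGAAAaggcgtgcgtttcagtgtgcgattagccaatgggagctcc
LIG1 (GRCh38.p14, chr19:48170411-48170498, minus strand): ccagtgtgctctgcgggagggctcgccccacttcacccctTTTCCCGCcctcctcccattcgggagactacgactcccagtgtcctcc
RFC3 (GRCh38.p14, chr13:33818054-33818141, plus strand): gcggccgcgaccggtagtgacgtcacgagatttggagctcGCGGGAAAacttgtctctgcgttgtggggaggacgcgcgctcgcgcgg
UHRF1 (GRCh38.p14, chr19:4909447-4909500, plus strand): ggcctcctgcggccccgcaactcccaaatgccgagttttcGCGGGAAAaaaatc

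Library totals ran from 26134744 to 38430299 counts, of which the 34 genes took between 0.418% and 0.576%. Control B lay nearer to lupeol 50 replicate 1 (chi-square per degree of freedom 7.73) than to controls 1 (20.3) and A (24.97), and lupeol 80 replicate 2 lay nearer to lupeol 50 replicate 1 (15.4) than to its own group (43.2 and 26.4). Of 12 defining markers of a monocytic line 11 were tested. Their summed level was 1842 to 1919.9 CPM in control, 1623 to 1784 CPM at lupeol 50 and 1545 to 1626 CPM at lupeol 80, and 1, CEBPA, was called (lower at lupeol 80 than in control), a comparison in which 0 genes were called without control 1. The summed markers of T cells, epithelial cells and fibroblasts (5 each) stayed under 1 CPM in every library, with CD3E, CD3G, EPCAM, KRT19, CDH1, COL1A2, COL3A1 and LUM at 0 counts throughout. The B cell list, of 5 genes with MS4A1 at 0 and PAX5 the highest, summed to 45.4 to 53.3 CPM in control, 42.2 to 61.6 CPM at lupeol 50 and 20.6 to 36.7 CPM at lupeol 80. The part of these markers in the results was not tested.

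Divided by gene length, so that genes can be compared, the 34 genes spanned a wide range. In control cells the mean level per kilobase ran from 3.44 CPM per kilobase for GINS3 to 169 for MCM3, with a median of 25.5, against a median of 2.78 over all tested genes. MCM3 (169 ± 19.1 CPM per kilobase, SD, n = 3), thymidine kinase TK1 (107 ± 3.23), the clamp PCNA (106 ± 3.46), MCM7 (99.1 ± 4.98) and MCM4 (82.5 ± 5.95) stood at the top. The control libraries of TK1 and PCNA overlapped, as did those of PCNA and MCM7, while MCM3 lay above all others. At the bottom stood the catalytic polymerase alpha subunit POLA1 (3.69 ± 0.349) and GINS3 (3.44 ± 0.151), which overlapped, below the polymerase epsilon subunit POLE2 (7.23 ± 0.474). The proteins of MCM2-7 form 1 ring, yet their transcripts were unequal in every library: MCM3 was the highest and MCM5 the lowest of the 6, and the ratio between them was 3.61, 3.65 and 3.28 in control, 3.44, 3.35 and 3.56 at lupeol 50 and 5.11, 3.39 and 3.85 at lupeol 80. Lupeol 80 replicate 1 had the widest ratio. RRM1, the large subunit of ribonucleotide reductase, stood at 2.02 to 2.37 times the small subunit RRM2 per kilobase across the 9 libraries. Both statements rest on the gene lengths in the table, in which RRM1 has 4233 bases, RRM2 9153, MCM5 7268 and MCM2 4715. Undivided by length, control means were 255 ± 23.1 CPM for RRM1 and 260.1 ± 9.29 CPM for RRM2, and MCM2 (247 ± 10.5 CPM) stood lower than MCM5 (349 ± 20.98 CPM, SD, n = 3).

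The remaining genes lay between these ends, given here as mean CPM per kilobase in control. The licensing genes stood at 64.99 for MCM6, 53.3 for CDT1, 52.4 for MCM2, 48.03 for MCM5, 30.99 for ORC1, 18.1 for CDC6 and 11.7 for ORC6. Helicase cofactors were lower on the whole, at 25.4 for CDC45, 21.9 for GINS1, 16.2 for MCM10, 13.5 for GINS2 and 10.999 for GINS4. Clamp loader subunits, which open the PCNA ring, stood at 25.6 for RFC3, 22.5 for RFC4, 21.4 for RFC2 and 13.8 for RFC5. Among polymerases and primase the levels were 34.8 for POLD1, 11.6 for POLE and 9.32 for PRIM1. The nucleotide supply genes stood at 60.3 for RRM1, 28.4 for RRM2 and 24.5 for TYMS, the Okazaki genes at 73.05 for FEN1 and 12.9 for LIG1, and the regulators at 54.2 for UHRF1 and 43.6 for E2F1.

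**Figure D1:**
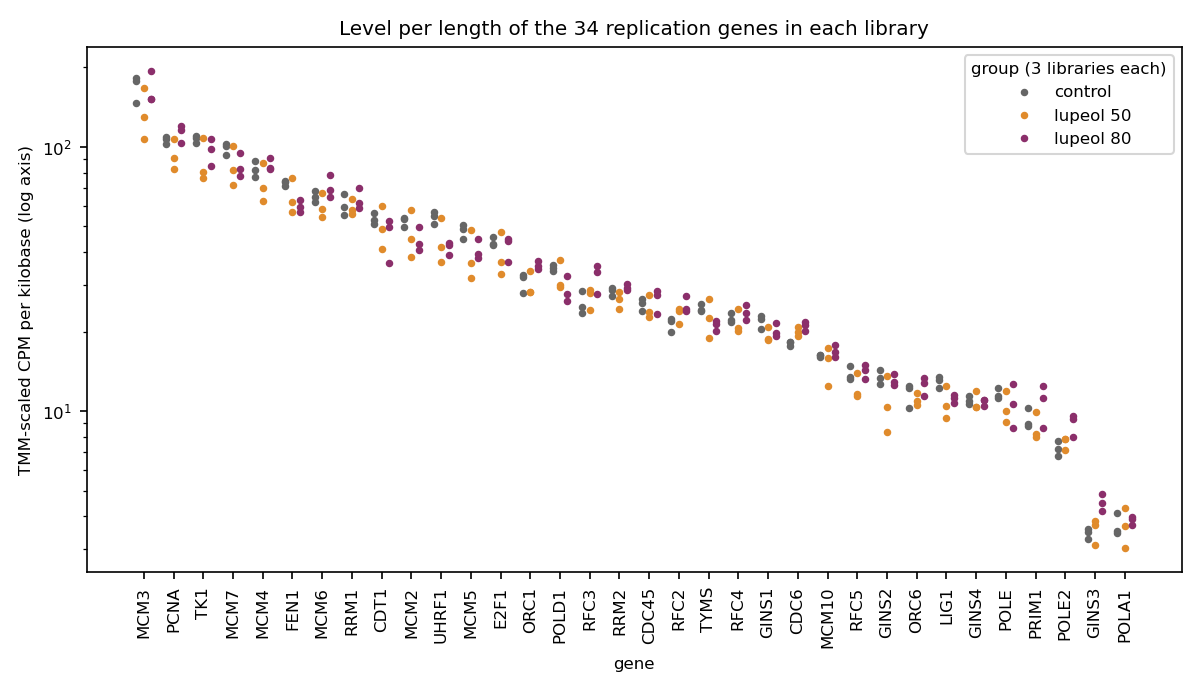
Level of each gene in TMM-scaled CPM per kilobase (log axis), ordered by the mean over 9 libraries, with 1 point per library and the groups side by side in the order control, lupeol 50, lupeol 80. The genes run from MCM3, at 169 in control, to POLA1 and GINS3, and the 3 groups overlap for most genes.

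Neither dose gave a call in this gene set. With edgeR's quasi-likelihood test, an adjusted p under 0.05 was reached by 0 of 34 genes for lupeol 80 against control, for lupeol 50 against control and for lupeol 80 against lupeol 50, where 1.14%, 0% and 0.0455% of the 17568 tested genes reached it. By direction, the calls at lupeol 80 were 0.29% of tested genes higher and 0.854% lower than control, and 0.0342% higher and 0.0114% lower than lupeol 50. In the test of any difference among the 3 groups, 0 of 34 reached it (0.233% of tested genes), and 3 had an unadjusted p under 0.05, UHRF1, GINS3 and RFC3 (19.9% of tested genes). In the same order of comparisons, DESeq2 called 0 of 34 each time, beside 6.75%, 1.44% and 3.1% of all genes with an adjusted p, and limma-voom 0 of 34, beside 0.603%, 0% and 0.0114% of tested genes. The SE of a log2 fold change lay between 0.10 and 0.15, and the 95% interval of each of the 34 genes stayed inside a 2-fold change in all 3 comparisons. It stayed inside a 1.5-fold change for 30 genes at lupeol 80 against control, 31 at lupeol 50 against control and 30 between the doses. Smaller changes are not shown to be absent by a p that misses the threshold.

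**Figure D2:**
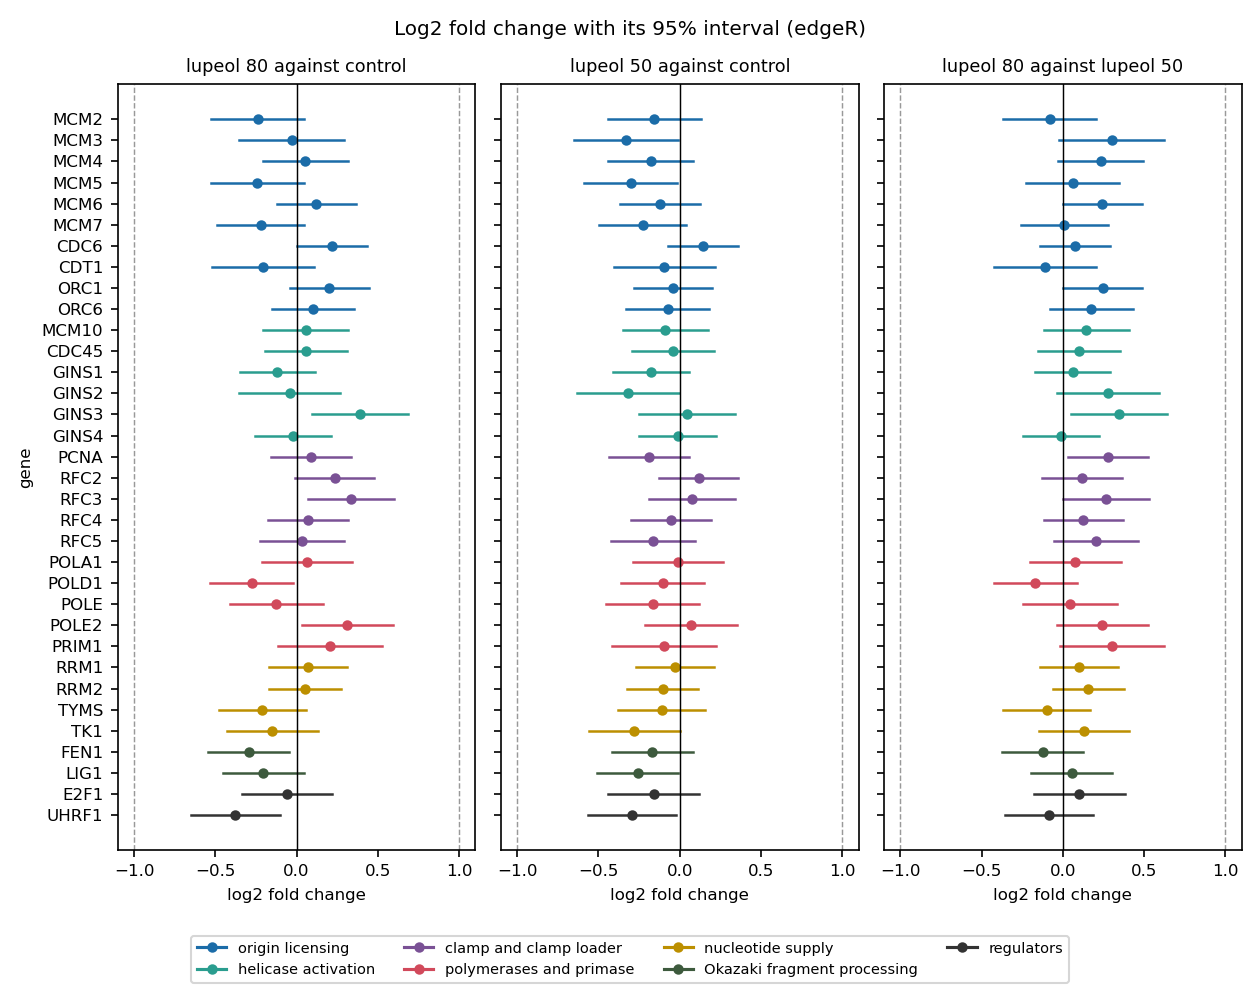
Log2 fold change (points) of each gene with its 95% interval (lines) for the 3 comparisons, coloured by role, with dashed lines at a 2-fold change. At lupeol 80 the points lie on both sides of 0, from -0.38 for UHRF1 to 0.39 for GINS3, and at lupeol 50 29 of 34 lie below 0.

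Lupeol 80 against control asked what the higher dose did to these transcripts. The genes split around 0: 18 stood above control and 16 below, with a median log2 fold change of 0.04, against 51.1% of tested genes above 0, 48.9% below 0 and a median of 0.01. An unadjusted p under 0.05 was found for 4 genes on the higher side (GINS3, RFC3, POLE2 and CDC6) and 3 on the lower side (UHRF1, FEN1 and POLD1), shares of 11.8% and 8.82% beside 8.84% and 10.7% of tested genes. The 3 lupeol 80 libraries lay wholly above the controls for 5 genes (11% of tested genes) and wholly below for 7 (12.9%). The shares of the 34 genes were 14.7% and 20.6%. Without lupeol 80 replicate 1, the highest of the 9 libraries for 10 genes, 18 stood above and 16 below 0.

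Among the licensing genes at lupeol 80, MCM3, the most abundant MCM subunit per length, had 708, 552 and 551 CPM, against 665, 648 and 537 CPM in control. The groups overlapped, and the highest of all 9 libraries was lupeol 80 replicate 1 (log2 fold change -0.03 ± 0.15, SE). MCM5 had 276, 325 and 285 CPM at lupeol 80 and 367, 354 and 326 CPM in control, without overlap (-0.24 ± 0.14, edgeR adjusted p = 0.341). Its ring partners MCM2 (-0.24, also without overlap) and MCM7 (-0.22) stood on the same side of 0, while MCM6 (0.12) and MCM4 (0.05) stood above it. CDC6, the ATPase that brings the ring to the origin complex, had 112, 107 and 115 CPM at lupeol 80 and 94.02, 96.8 and 96.9 CPM in control, with all 3 lupeol 80 libraries above the controls (0.22 ± 0.10, adjusted p = 0.248). Its partner CDT1 had 101, 145 and 138 CPM at lupeol 80 and 156, 146 and 141 CPM in control. The low value was that of lupeol 80 replicate 1. The origin complex subunit ORC1 lay above all controls at 116, 107 and 111 CPM, against 102, 101 and 87.5 CPM in control (0.20 ± 0.11, adjusted p = 0.343), and ORC6, another subunit, stood at 0.10.

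In the helicase group, GINS3, 1 of the 4 subunits of the GINS complex, had 22.9, 21.3 and 24.9 CPM at lupeol 80 and 16.7, 17.9 and 18.2 CPM in control. All 3 lupeol 80 libraries lay above the controls, and the log2 fold change of 0.39 ± 0.14 was the highest of the 34 genes (95% interval 0.09 to 0.68, edgeR adjusted p = 0.146). The other GINS subunits, of the same complex, stood at -0.12 (GINS1), -0.04 (GINS2) and -0.02 (GINS4). CDC45, the helicase cofactor with the highest level per length here, had 69.5, 82.1 and 84.4 CPM at lupeol 80 and 76.1, 71.4 and 79.2 CPM in control, with overlap, and MCM10, which is needed to activate the helicase, stood at 0.06.

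The clamp PCNA had 169, 145 and 162 CPM at lupeol 80 and 151, 144 and 153 CPM in control, overlapping (0.09 ± 0.12). Of the clamp loader subunits, RFC3 had 102, 79.5 and 96.04 CPM at lupeol 80 and 70.9, 67.2 and 81.5 CPM in control. Lupeol 80 replicate 2 lay below control B, so the groups overlapped (0.34 ± 0.13, edgeR adjusted p = 0.159). RFC2 stood at 0.23, with its lupeol 80 libraries all above the controls, RFC4 at 0.07 and RFC5 at 0.04. All 5 genes of this group stood above 0, but with each library's GC trend removed, RFC4 (-0.01) and RFC5 (-0.06) stood below it.

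Within the polymerases, values lay on both sides of 0. POLD1, the catalytic subunit of polymerase delta, had 129, 160.3 and 136 CPM at lupeol 80 and 177, 172 and 167 CPM in control, with no overlap (-0.28 ± 0.12, edgeR adjusted p = 0.221). POLE, the catalytic subunit of polymerase epsilon, had 178, 213 and 145 CPM at lupeol 80 and 205, 192 and 188 CPM in control, a spread that held both the highest and the lowest of the 9 libraries. POLE2, the second subunit of polymerase epsilon, had 27.5, 23.6 and 28.3 CPM at lupeol 80 and 19.997, 21.3 and 22.8 CPM in control, without overlap (0.31 ± 0.13, adjusted p = 0.209). PRIM1, the catalytic primase subunit, stood at 0.21 with overlap, and POLA1 at 0.07.

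In nucleotide supply, TK1, which salvages thymidine, had 156, 181 and 198 CPM at lupeol 80 and 203, 199 and 191 CPM in control, overlapping (-0.15). The ribonucleotide reductase genes RRM1 (0.07) and RRM2 (0.05) stood close to 0. TYMS, thymidylate synthase, stood at -0.21 without overlap, but 39.9% of its exon bases overlap ENOSF1 on the other strand. The sources used here do not give whether counting used strand, so its value is uncertain, as are those of MCM2 and GINS4, which share 23.6% and 21% of their exon bases with antisense genes. Those antisense genes held 150 and 94 counts over the 9 libraries, against 59289 for MCM2 and 15652 for GINS4, whereas ENOSF1 held 14360 beside 14432 for TYMS. PRIM1 shares exon bases on its own strand with NACA (4.9%, 74029 counts beside 7305 for PRIM1) and with a gene at 0 counts (12.7%). RFC5 shares 5.7% with WSB2 on the other strand (21393 counts beside 11506 for RFC5). The values of PRIM1 and RFC5 are uncertain too, and further replication genes share exon bases with neighbours. FEN1, the nuclease that trims Okazaki flaps, had 124, 130.0 and 138 CPM at lupeol 80 and 163, 156 and 162 CPM in control, with all lupeol 80 libraries below the controls (-0.29 ± 0.12, edgeR adjusted p = 0.184). LIG1, the ligase that joins the fragments, also lay below all controls (-0.21, adjusted p = 0.351).

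UHRF1, which brings the maintenance methyltransferase to newly copied DNA, had 219, 224 and 201 CPM at lupeol 80 and 292, 281 and 263 CPM in control. No library overlapped, and its log2 fold change of -0.38 ± 0.13 was the lowest of the 34 genes and its p the smallest (95% interval -0.65 to -0.10, edgeR adjusted p = 0.131). It lies at chr19:4903080-4962154 on the plus strand, and GINS3 at chr16:58295080-58406147, in the coordinates of the deposited table, which are those of GRCh38. E2F1, a transcription factor of S phase entry, had 99.1, 119 and 120.4 CPM at lupeol 80 and 122, 116 and 114 CPM in control, overlapping (-0.06).

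**Figure D3:**
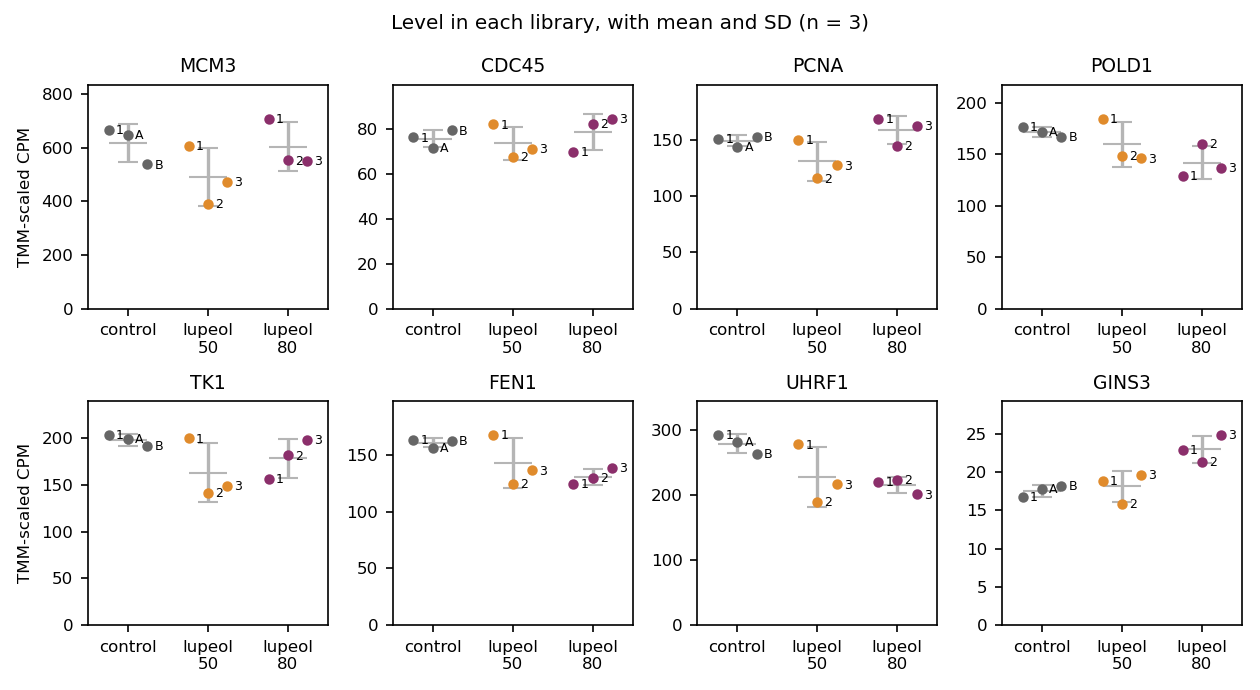
TMM-scaled CPM of 8 genes in each of the 9 libraries (points, labelled with the replicate), with the mean and SD of 3 libraries in grey. They are the gene of highest level per length in each role group, and GINS3. Lupeol 50 replicate 1 lies beside the controls while lupeol 50 replicates 2 and 3 lie lower for MCM3, PCNA, TK1, FEN1 and UHRF1.

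Lupeol 50 against control asked the same of the lower dose. Here 29 of 34 genes stood below control and 5 above, with a median of -0.11, where 50.5% of tested genes stood below 0, 49.5% above 0, and their median was -0.00332. By role, the genes below control were 9 of 10 in licensing, 5 of 6 in helicase activation, 3 of 5 in the clamp group, 4 of 5 in polymerases and primase, and all of nucleotide supply, Okazaki processing and the regulators. An unadjusted p under 0.05 was found for 5 genes on the lower side (14.7%, beside 6.02% of tested genes) and 0 on the higher side (6.4%). The lupeol 50 libraries lay wholly below the controls for 0 of 34 genes (9.63% of tested genes) and wholly above for 1, CDC6 (9.55%). The 5 genes with the smallest p were UHRF1 (-0.29 ± 0.13), MCM5 (-0.30 ± 0.14), LIG1 (-0.26 ± 0.12), MCM3 (-0.33 ± 0.15) and GINS2 (-0.32 ± 0.15), none of them called (edgeR adjusted p from 0.371 to 0.397). The 2 doses share the control libraries, so that UHRF1, MCM5 and LIG1 stand low against control in both is not independent.

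The lupeol 50 libraries differed among themselves in these genes. MCM3 had 607, 391 and 473 CPM at lupeol 50, MCM5 had 352, 232 and 265 CPM, and UHRF1 had 277, 189 and 216 CPM. In each, replicate 1 lay within the controls' range, and replicates 2 and 3 lay below all controls. GINS2, a subunit of the helicase complex, had 43.8, 26.9 and 33.5 CPM at lupeol 50 and 43.04, 40.9 and 46.1 CPM in control, LIG1 had 81.6, 62.1 and 68.6 CPM at lupeol 50 and 86.03, 88.2 and 80.1 CPM in control, and TK1 had 199, 141 and 149 CPM at lupeol 50 and 203, 199 and 191 CPM in control. The same 2 replicates were the low ones. FEN1 had 167, 124 and 136 CPM at lupeol 50 (-0.17), POLD1 had 185, 148 and 146 CPM (-0.11), E2F1 had 128, 88.7 and 98.6 CPM (-0.16) and CDC45 had 81.9, 67.5 and 70.9 CPM (-0.04). Replicate 1 lay above all controls in each of these. CDC6 stood on the other side, with 106, 110.3 and 102 CPM at lupeol 50, all above the controls (0.14 ± 0.10, edgeR adjusted p = 0.596).

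Counted over the 34 genes, lupeol 50 replicate 2 lay below all 3 controls for 27 genes and lupeol 50 replicate 3 for 25, where 31.9% and 30.5% of tested genes did. Lupeol 50 replicate 1 lay below all controls for 0 genes and above all of them for 17, where 26.3% and 23.4% of tested genes did. Of the 9 libraries, replicate 2 was the lowest for 21 of 34 genes, and its median deviation from the mean of the 9 was -0.25 on the log2 scale, against -0.12 in replicate 3, 0.11 in replicate 1 and 0.01 to 0.10 in the controls. The median coefficient of variation of the genes was 5.13% in control, 13.4% at lupeol 50 and 7.75% at lupeol 80, beside 12.7% in control, 12.8% at lupeol 50 and 18.003% at lupeol 80 over all tested genes. The 2 sets are not matched for level: in each group all 34 genes lay above the median level per kilobase of all tested genes. Without lupeol 50 replicate 2 the count below control was 21 of 34, and without replicate 1 it was 29. Without replicate 1, 12 of the 34 genes had an unadjusted p under 0.05, none called. Calls over all genes rose in that setting too, from 0% to 2.34%. The share of all genes at an unadjusted p under 0.05 is not given for it, so the 12 cannot be read as particular to these genes. CDKN1A, a cyclin-dependent kinase inhibitor gene named after its values had been seen, had 256, 508 and 377 CPM at lupeol 50, highest in replicate 2, and 200.1, 209 and 357 CPM in control (0.58 ± 0.31, edgeR adjusted p = 0.507), and its part in these levels was not tested.

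**Figure D4:**
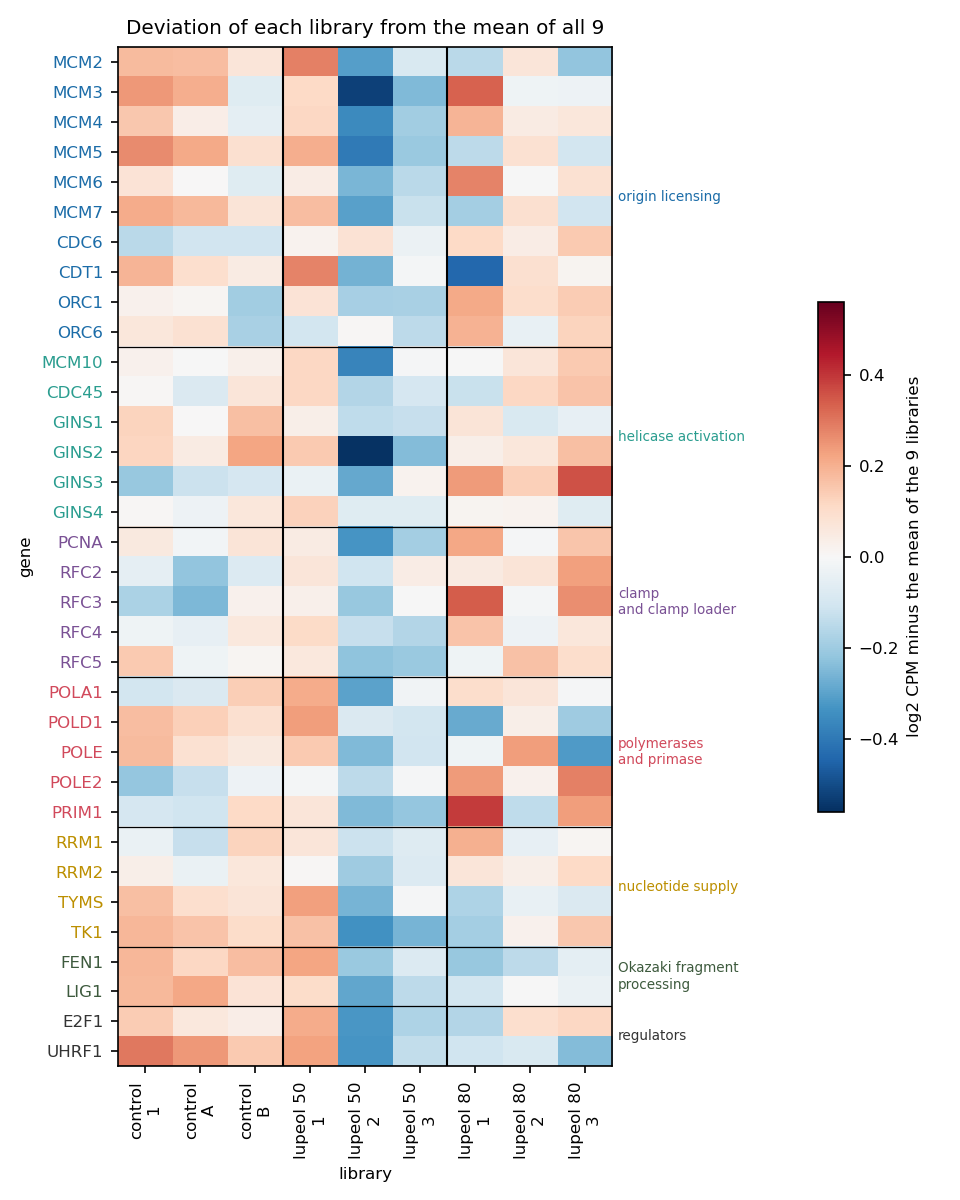
Heat map of each gene's log2 CPM in a library minus its mean over the 9 libraries (blue lower, red higher), with genes grouped by role and libraries by group. Lupeol 50 replicate 2 is blue for most genes, with a median of -0.25, while lupeol 50 replicate 1 has a median of 0.11.

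Lupeol 80 against lupeol 50 compared the doses directly. Of the 34 genes, 27 stood higher at lupeol 80 and 7 lower, with a median of 0.11, where 50% of tested genes stood above 0. An unadjusted p under 0.05 was found for 3 genes on the higher side (8.82%, beside 7.23% of tested genes) and for 0 on the lower side (8.18%), and the lupeol 80 libraries lay wholly above those of lupeol 50 for 4 genes (9.42%) and wholly below for 0 (9.63%). GINS3 had 22.9, 21.3 and 24.9 CPM at lupeol 80 and 18.9, 15.9 and 19.6 CPM at lupeol 50 (0.34 ± 0.14), and PCNA had 169, 145 and 162 CPM at lupeol 80 and 149.8, 116 and 127 CPM at lupeol 50 (0.28 ± 0.12). ORC1 (0.24 ± 0.11), MCM6 (0.24 ± 0.12) and RFC3 (0.26 ± 0.13) followed, and their adjusted p by edgeR ran between 0.264 and 0.328. The lupeol 50 libraries enter both this comparison and the one with control. Without lupeol 50 replicate 2, 21 of 34 genes stood above 0, and without lupeol 50 replicate 1, 33 did. In the latter setting 11 of the 34 had an unadjusted p under 0.05, and calls over all genes rose from 0.0455% to 0.856%. The share of all genes at an unadjusted p under 0.05 is not given for it.

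The lupeol 80 fold changes ran against the base composition of the transcripts. The GC content of the longest GENCODE 29 transcript ran from 39.1% (RFC3) to 64.97% (POLD1) over the 34 genes. The 18 genes that stood above control at lupeol 80 had a median GC content of 44.9%, and the 16 below it 56.02%. Spearman's rho across the 34 genes, which share their libraries and are not independent replicates, was -0.71 for lupeol 80 against control, -0.44 for lupeol 50 against control and -0.56 between the doses. Across 17173 tested genes it was -0.50, -0.22 and -0.32, the same direction in all 3. By library, rho of the 34 deviations with GC content was 0.73, 0.73 and 0.13 in controls 1, A and B, 0.68, -0.23 and -0.19 in lupeol 50 replicates 1 to 3, and -0.77, 0.29 and -0.47 in lupeol 80 replicates 1 to 3.

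With each library's GC trend removed, a setting chosen after seeing the data, 0 of 34 genes were called, and at lupeol 80 the genes with the smallest p before it lay nearer to 0. UHRF1 stood at -0.23 ± 0.11, GINS3 at 0.27 ± 0.13, POLE2 at 0.19 ± 0.12, FEN1 at -0.17 ± 0.10, RFC3 at 0.10 ± 0.10 and POLD1 at -0.01 ± 0.09. The smallest p was then that of RFC2 (0.36 ± 0.10, edgeR adjusted p = 0.176), followed by GINS1 (-0.29 ± 0.09), and both lay farther from 0 than before. At lupeol 50 the count below control was 29 of 34 with this setting too, though not of the same genes: CDT1 and POLD1 then stood above 0, and GINS3 and RFC3 below it. Of the 5 genes with the smallest p at that dose, MCM3 stood at -0.31 ± 0.15, GINS2 at -0.33 ± 0.14, UHRF1 at -0.25 ± 0.11, MCM5 at -0.23 ± 0.11 and LIG1 at -0.19 ± 0.10. All but GINS2 lay nearer to 0 than before.

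**Figure D5:**
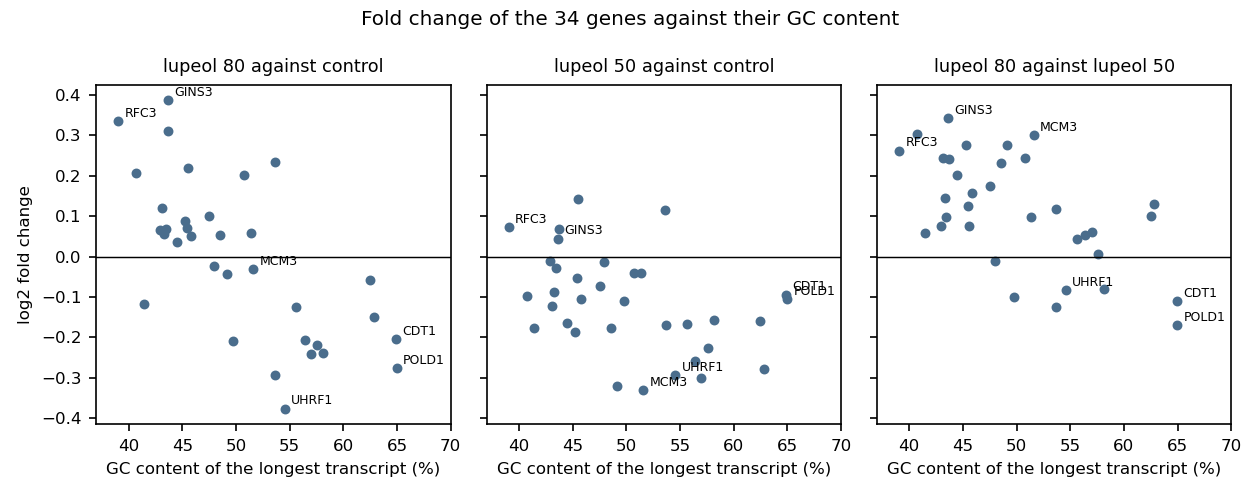
Log2 fold change of the 34 genes (vertical axis) against the GC content of their longest transcript in percent (horizontal axis) for the 3 comparisons, 1 point per gene. At lupeol 80 the points run downward from RFC3 at the low GC end to POLD1 at the high end (rho -0.71), and at lupeol 50 the slope is weaker (rho -0.44).

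Genes with and without the E2F letters in the promoter window were set side by side as a description. At lupeol 50 the 18 genes with a match had a median log2 fold change of -0.16 and the 13 without one -0.09. At lupeol 80 the medians were -0.05 and 0.06. The genes at both ends of the lupeol 80 comparison, UHRF1 and GINS3, each held TTTCCCGC on the opposite strand. So did CDT1, GINS2, MCM7, PCNA, RFC3 and TYMS. The part of the letters in the fold changes was not tested.

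Further genes of DNA replication were counted beside these. Of 42 listed genes 41 were tested (not RNASEH2A), and 0 were called in any of the 3 comparisons (edgeR). At lupeol 80 against control, 27 (65.9%) stood above 0 and 14 below, with a median of 0.09, where 51.1% of tested genes stood above 0. Of these, 4 and 2 had an unadjusted p under 0.05 (9.76% and 4.88% of the 41, beside 8.84% and 10.7% of tested genes). At lupeol 50, 30 of 41 (73.2%) stood below control, with a median of -0.08, beside 50.5% of tested genes. MCMBP, a binding partner of MCM subunits, had 246, 226 and 244 CPM at lupeol 80 and 190.1, 176 and 206 CPM in control (0.32 ± 0.11, edgeR adjusted p = 0.116), and the origin complex subunit ORC4 had 24.4, 20.5 and 23.8 CPM at lupeol 80 and 16.9, 16.1 and 18.1 CPM in control (0.43 ± 0.14, edgeR adjusted p = 0.124). Neither overlapped with control.

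Regulators of S phase entry were measured through 18 genes: E2F and RB family members, the E2F partner TFDP1, cyclins E and A, the kinase CDK2 and its inhibitors, the phosphatase CDC25A, and the ubiquitin pathway genes SKP2 and FBXO5. None was called in any of the 3 comparisons (edgeR), and the medians were 0.02 at lupeol 80 and 0.00 at lupeol 50, both against control. The unadjusted p was under 0.05 for 2 genes above control (11.1%) and 0 below it at lupeol 80, beside 8.84% and 10.7% of tested genes. At lupeol 50 it was so for 0 above and 1 below (5.56%), beside 6.4% and 6.02% of tested genes. RB1, which holds E2F factors inactive, had 161, 134 and 135 CPM at lupeol 80 and 111, 107 and 134 CPM in control (0.29 ± 0.12, edgeR adjusted p = 0.197). Its relative RBL1 had 130.3, 96.4 and 97.3 CPM at lupeol 80 and 98.9, 89.99 and 70.3 CPM in control (0.32 ± 0.14, edgeR adjusted p = 0.226). CDKN1A stood on opposite sides of control at the 2 doses, with 131, 195 and 171 CPM at lupeol 80, all below the controls, and the difference between the doses was -1.20 ± 0.32 without overlap (edgeR adjusted p = 0.161).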

How the data were processed

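The authors deposited raw read counts by gene, not normalized, in 1 table that also lists exon positions and gene length, per the file headers. The submitters' processing notes name Bowtie 0.12.2 and mm8, a mouse build, yet the genes in the table are human: 35993 versioned IDs are in GENCODE 29, and all have the same coordinates there, on GRCh38. The 34 replication genes are not among those versioned IDs. Their GC content was taken from GENCODE 29 by the ID without its version. The sources used here give neither the counting tool nor its strand setting. Of 67928 genes, 1 has empty values and was left out. Symbols came from a table of gene names, which held all 34 genes.

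Counts were tested with edgeR 4.0.16 in R 4.3.3 (filterByExpr, TMM, robust quasi-likelihood F test, 1 fit of all libraries), with Benjamini-Hochberg adjustment over 17568 genes and calls at an adjusted p under 0.05. The SE is the absolute log2 fold change over the square root of F, and the 95% interval uses the fit's total degrees of freedom. Deviations use log2 CPM with a prior count of 2. Alternatives were DESeq2 1.42.0, limma-voom 3.58.1, other scaling and filters, libraries left out and, chosen after seeing the data, removal of each library's loess trend on GC content (offsets in edgeR). The test was checked on simulated data. Full statistics were given to the 5 genes with the smallest p in a comparison, as none was called, and library values to the gene of highest level per length in each role; other values were added after they were seen. The members and lists were chosen with earlier results of these data known, and 1 list of cell type markers is not reported here.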

Additional observations from a re-analysis of the deposited data

How the results depend on the processing

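No replication gene was called in any of the 18 alternatives tried for each comparison, nor in the test of any difference among the groups. The smallest adjusted p among the 34 genes lay between 0.0784 and 0.367 for lupeol 80 against control, 0.0588 and 0.888 for lupeol 50 against control and 0.125 and 0.531 between the doses. The 15 fold changes given with full statistics kept their direction and stayed uncalled in all 270 pairings of a fold change with an alternative. They were chosen for the smallest p in these same libraries, so their kept direction is not an independent check. The median of the 34 genes at lupeol 50 was -0.23 without lupeol 50 replicate 1, and -0.0516 without lupeol 50 replicate 2, the lowest and highest with 1 library left out.

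Counts over all genes depended on the setting, and the causes were not tested. For lupeol 80 against control, beside 201 genes called, they were 861 with no filter, 124 at a mean of 5 CPM or more, 910 by DESeq2, 106 by limma-voom, 78 with only the groups compared, 17 with the GC trend removed, 860 with control B and lupeol 80 replicate 1 both left out, and 0 to 386 with 1 library left out (0 without control 1 and 1 without control A). For lupeol 50 against control, beside 0, they were 520, 218 and 1 with no filter, by DESeq2 and with only the groups compared, 913 without both libraries, and 0 to 427 with 1 left out (the most without lupeol 50 replicate 1). Between the doses, beside 8, they were 14 with no scaling factors, 659 with no filter, 5 at 5 CPM, 439 by DESeq2, 2 by limma-voom, 25 without both libraries and 1 to 189 with 1 left out. For any difference, beside 41, they were 27 with DESeq2 size factors, 1423 with no filter, 1 at 5 CPM, 1073 by DESeq2, 2 by limma-voom, 8 with the GC trend removed, 924 without both libraries and 1 to 654 with 1 left out. No paired analysis was possible because the labels give no replicate number that the groups share. The replicate numbers used here follow only the order of the samples within a group.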

Other observations

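Genes of mitosis stood low at lupeol 80 where the replication genes split around 0. Of 20 mitosis genes, 16 (80%) stood below control at lupeol 80 with a median log2 fold change of -0.13. At lupeol 50, 14 (70%) did, with -0.08. Of tested genes, 48.9% stood below control at lupeol 80 and 50.5% at lupeol 50. None of the 20 was called (edgeR). The unadjusted p was under 0.05 on the lower side for 7 at lupeol 80 (35%) and 0 at lupeol 50, beside 10.7% and 6.02% of tested genes. On the higher side it was so for 0 and 0, beside 8.84% and 6.4%. The lupeol 80 libraries lay wholly below the controls for 8 of the 20, a share of 40% beside 12.9% of all tested genes. KIF20A, a kinesin of cytokinesis, had 69.004, 65.99 and 54.8 CPM at lupeol 80 and 89.95, 102 and 82.6 CPM in control (-0.53 ± 0.13, edgeR adjusted p = 0.0555). AURKA, a spindle kinase, had 101, 105 and 94.4 CPM at lupeol 80 and 126, 124 and 130.3 CPM in control (-0.34 ± 0.10, edgeR adjusted p = 0.100).

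MKI67, a marker of cycling cells chosen here after its values were seen, had 602, 653 and 654 CPM in control, 656, 565 and 586 CPM at lupeol 50 and 635, 629.6 and 325 CPM at lupeol 80. Lupeol 80 replicate 3 was the low library, while its median deviation over the 34 replication genes was 0.07, close to the controls. GMNN, the inhibitor of CDT1, also chosen after its values were seen, had 24.3, 21.9 and 24.6 CPM in control, 21.4, 17.3 and 20.5 CPM at lupeol 50 and 27.3, 22.7 and 25.2 CPM at lupeol 80, and the lupeol 50 libraries lay below all others for it.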
